A study of Mus musculus with 48 samples.

Results

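The Polycomb domains described here are the 316 wide H3K27me3 domains of wildtype mouse embryonic stem cells that had no H3K4me3 beside them. They were taken from the wildtype H3K27me3 list, which holds 43446 domains, by 2 conditions: a width of at least 1000 bp, and no wildtype H3K4me3 domain within 500 bp of either end. Of the 4676 domains that met the width condition, 316 (6.76%) met both, and the other 4360 had H3K4me3 and are given beside them as a reference. The wildtype H3K27me3 and H3K4me3 lists chose these domains, so their wildtype values are a description.

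The study asked what the transcription factors ZBTB11 and ZFP131 do in pluripotent cells, and measured histone marks, polymerase and cofactors by chromatin immunoprecipitation and sequencing. The wildtype was the Ainv15 line with iCre. The line named Zbtb11KO lacked Zbtb11 and carried a doxycycline-inducible Zbtb11-HA (iZbtb11-HA), and Zfp131KO lacked Zfp131 and carried iZfp131-HA. The double knockout lacked both genes and carried iZbtb11-HA and iZfp131-V5. Cells of every genotype were kept for 3 days with LIF, without the 2 inhibitors of the 2i medium and without doxycycline, so the inducible proteins were off. Binding of ZBTB11 and ZFP131 was measured through HA in the knockout lines with doxycycline and with 2i and LIF. Each target and genotype had 2 libraries from 1 line, so a knockout and a difference between lines cannot be told apart, and the labels do not say whether the libraries were separate cultures. Among markers of the labelled cell type, 8 of 8 pluripotency genes with a start in the RefSeq promoter table had wildtype H3K4me3 at it and 7 had H3K27ac, against 0 of 4 two-cell-like genes for either mark. H3K4me3 alone did not separate cell types, since 6 of 6 neural and 5 of 6 trophectoderm genes had it too, while 2 and 1 of them had H3K27ac.

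H3K27me3 is placed by the Polycomb repressive complexes and marks genes held silent, many of them developmental regulators. At CpG-rich promoters in embryonic stem cells it usually lies together with H3K4me3, the mark of open promoters, in a state called bivalent. A Polycomb domain without H3K4me3 can be a silent promoter that lacks the active mark, or the flank of a bivalent gene where the spread of H3K27me3 reaches beyond the promoter.

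Most of these domains held no transcription start of the RefSeq promoter table. Such a start lay inside 27 of the 316 (8.54%), compared with 1532 of the 4360 domains with H3K4me3 (35.1%). That promoter table lacks some genes, Gata4 among them, so a domain at a missing start is counted as having none. The 27 domains held starts of 28 genes, 18 of them protein-coding, and 12 of those 18 had no start within 500 bp of wildtype H3K4me3. The 250 bases upstream of 9 of these starts are shown because these promoters carried H3K27me3 without H3K4me3 within 500 bp. A further reason is that they differed widely in CG dinucleotides, the sequence feature that marks promoters with H3K4me3. The sequences are from RefSeq (GRCm38.p6, the assembly that mm10 names), read 5′ to 3′ on the strand of the gene, with each CG in capitals.
Meox2, chr12:37108290-37108539, plus strand: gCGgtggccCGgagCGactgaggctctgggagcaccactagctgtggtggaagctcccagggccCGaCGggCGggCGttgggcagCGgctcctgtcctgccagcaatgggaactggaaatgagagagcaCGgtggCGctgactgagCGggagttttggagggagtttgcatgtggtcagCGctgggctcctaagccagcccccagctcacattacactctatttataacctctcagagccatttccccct
Prdm8, chr5:98180619-98180868, plus strand: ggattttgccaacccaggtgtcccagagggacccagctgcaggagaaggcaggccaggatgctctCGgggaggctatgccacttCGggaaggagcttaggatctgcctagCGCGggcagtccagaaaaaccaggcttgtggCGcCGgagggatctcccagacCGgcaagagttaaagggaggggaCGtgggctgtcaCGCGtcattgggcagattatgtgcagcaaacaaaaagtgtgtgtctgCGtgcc
Npas4, chr19:4989972-4990221, minus strand: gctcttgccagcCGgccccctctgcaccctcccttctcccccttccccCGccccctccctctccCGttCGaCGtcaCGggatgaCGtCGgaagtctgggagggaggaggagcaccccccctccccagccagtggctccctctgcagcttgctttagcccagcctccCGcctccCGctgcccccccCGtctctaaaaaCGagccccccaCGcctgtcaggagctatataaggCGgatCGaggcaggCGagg
Tnf, chr17:35202008-35202257, minus strand: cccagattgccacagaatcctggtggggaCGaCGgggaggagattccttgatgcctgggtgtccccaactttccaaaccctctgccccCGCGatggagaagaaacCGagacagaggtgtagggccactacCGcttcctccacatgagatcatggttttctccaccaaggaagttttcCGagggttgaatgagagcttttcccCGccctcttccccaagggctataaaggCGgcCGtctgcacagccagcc
Flrt2, chr12:95691976-95692225, plus strand: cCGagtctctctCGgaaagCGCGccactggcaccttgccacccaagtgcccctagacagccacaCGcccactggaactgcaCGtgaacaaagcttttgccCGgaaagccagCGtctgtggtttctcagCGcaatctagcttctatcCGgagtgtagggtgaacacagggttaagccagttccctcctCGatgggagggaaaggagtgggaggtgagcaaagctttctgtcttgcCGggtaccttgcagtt
Dmrtc2, chr7:24869807-24870056, plus strand: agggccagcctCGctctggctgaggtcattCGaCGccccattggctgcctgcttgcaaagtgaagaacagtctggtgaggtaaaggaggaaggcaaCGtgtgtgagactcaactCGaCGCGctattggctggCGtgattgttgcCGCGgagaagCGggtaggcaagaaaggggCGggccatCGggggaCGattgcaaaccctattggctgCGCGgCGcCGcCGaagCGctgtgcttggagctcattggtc
Bhmg1, chr7:19118345-19118594, minus strand: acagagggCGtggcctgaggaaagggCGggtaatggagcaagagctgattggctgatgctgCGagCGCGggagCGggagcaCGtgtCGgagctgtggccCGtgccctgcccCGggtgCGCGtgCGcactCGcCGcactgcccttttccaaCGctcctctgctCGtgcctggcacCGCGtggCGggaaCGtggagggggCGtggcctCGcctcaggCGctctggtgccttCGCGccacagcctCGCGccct
Zic4, chr9:91368722-91368971, plus strand: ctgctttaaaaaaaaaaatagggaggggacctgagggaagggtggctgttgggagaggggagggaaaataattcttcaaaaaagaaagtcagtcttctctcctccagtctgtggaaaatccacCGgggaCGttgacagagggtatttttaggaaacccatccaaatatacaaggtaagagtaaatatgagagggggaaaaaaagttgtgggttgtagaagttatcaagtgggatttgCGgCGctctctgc
Hoxd4, chr2:74721728-74721977, plus strand: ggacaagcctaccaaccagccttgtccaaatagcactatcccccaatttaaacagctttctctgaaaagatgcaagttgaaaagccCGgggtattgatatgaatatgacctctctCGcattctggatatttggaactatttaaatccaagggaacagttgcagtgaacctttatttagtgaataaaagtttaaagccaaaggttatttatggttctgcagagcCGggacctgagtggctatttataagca

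The number of CG in these windows ran from 3 at Hoxd4 and 4 at Zic4, through 10 at Tnf, 11 at Prdm8 and 12 at Meox2 and Flrt2, to 16 at Npas4, 20 at Dmrtc2 and 28 at Bhmg1. CG reads the same on both strands, and it was counted by its letters alone. With 1 start per gene, the one richest in CG, 16 of the 28 genes (57.1%) had 10 or more CG in the window. The same share was 74.3% of the 1695 genes with a start inside a domain with H3K4me3, 40.2% of all 27025 genes in the RefSeq promoter table, and 4.85% of the 14542 genes with a start away from wildtype H3K4me3. The differences between these shares were not tested.

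MicroRNA genes lay inside 3 of the domains. Mir196a-2, from a family known to act on Hox transcripts, lies in the Hoxc cluster, inside the second widest domain, and Mir483 lies in Igf2, which encodes a fetal growth factor, while Gm51281 lies near Nt5e. The mature RNAs of Mir196a-2 and Mir483 are shown with the seed (bases 2 to 8) in capitals, from RefSeq (GRCm38.p6), because these are the products encoded under the mark. No pair of the 4 shares a seed.
mmu-miR-196a-5p, chr15:102973365-102973386, plus strand: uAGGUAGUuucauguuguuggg
mmu-miR-196a-2-3p, chr15:102973401-102973422, plus strand: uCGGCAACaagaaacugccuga
mmu-miR-483-5p, chr7:142654968-142654989, minus strand: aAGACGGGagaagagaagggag
mmu-miR-483-3p, chr7:142654932-142654952, minus strand: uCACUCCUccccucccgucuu

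The domains were narrower than those with H3K4me3. Their width had a median of 1385 bp and ran from 1000 to 5493 bp, against a median of 1876 bp and a maximum of 31124 bp for domains with H3K4me3. The wildtype list held a median of 316 H3K27me3 reads per kb in them, against 390. The rule sets a limit on the width, and the difference was not tested. The nearest wildtype H3K4me3 domain lay a median of 2536.5 bp away, and between 502 and 657746 bp.

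**Figure D1:**
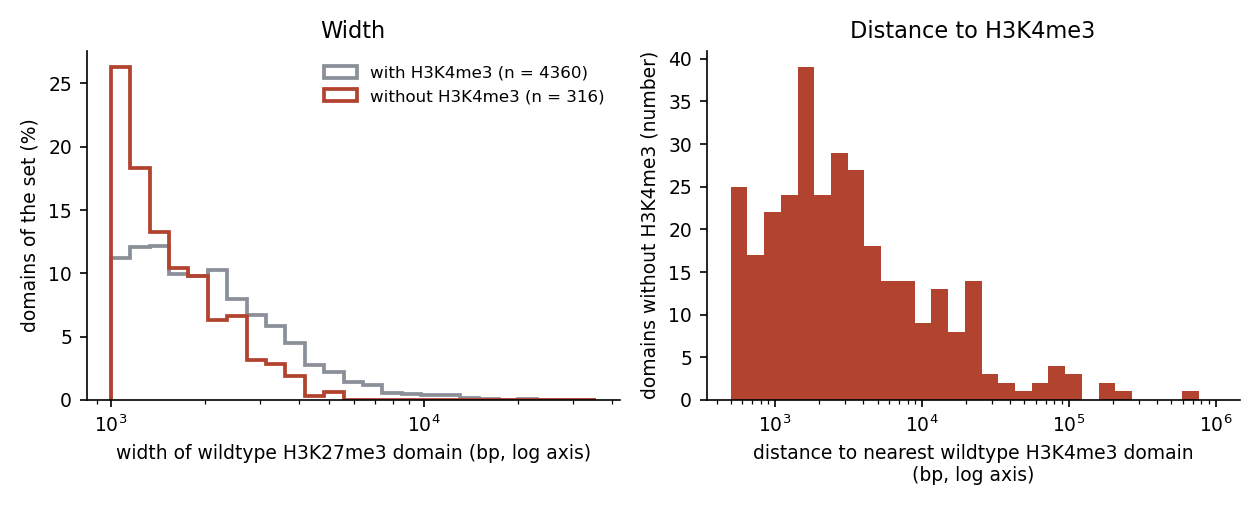
Left, the width of wildtype H3K27me3 domains of at least 1000 bp (log axis), as a percentage of the 316 domains without and the 4360 with H3K4me3 within 500 bp. Right, the number of the 316 domains by their distance to the nearest wildtype H3K4me3 domain (log axis), with a median of 2536.5 bp.

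Values just inside and just outside the rule's limits follow. The 64 domains less than 100 bp wider than the limit had a median of 295 reads per kb, and 67 domains up to 100 bp too narrow had 281. The 31 domains with H3K4me3 up to 250 bp beyond the limit had 331 reads per kb, and 49 domains with H3K4me3 up to 250 bp inside it had 316.

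Most of the domains lay close to a wide H3K27me3 domain with H3K4me3. Whether such neighbours form a single Polycomb locus was not tested. Within 5000 bp of 208 of the 316 (65.8%) lay another H3K27me3 domain of at least 1000 bp that did have H3K4me3, and 108 lay farther away. Domains within 50 kb of each other formed 222 loci, and 61 loci held more than 1 domain, 155 domains in all. The locus with the most, 7, was that of Zic1 and Zic4, neighbouring zinc finger genes of the developing brain. The next was the Hoxc cluster with 6, and the Dlx5 and Dlx6 locus and the Pax3 locus held 5 each. A protein-coding gene overlapped 147 domains (46.5%, against 83.3% of those with H3K4me3), and 232 (73.4%) lay within 5 kb of one.

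The 10 widest domains all lay at or near genes of embryonic patterning but for 1, at Sez6, a neuronal membrane protein. The widest, chr12:56526033-56531525, ended 410 bp from Nkx2-1, the homeobox gene of lung, thyroid and forebrain, and held 1973 reads over 5493 bp. The second, chr15:102969502-102974650, overlapped Hoxc10 and held 2461 reads over 5149 bp. Others overlapped Hoxc13 (4294 bp) and Gata4 (3736 bp), a regulator of endoderm and heart, or lay near Foxd2 (3933 bp) and Hoxd13 (3822 bp). A pair of 3748 and 3745 bp lay side by side near Foxb1, a forkhead gene of the developing brain.

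The comparison with wildtype called H3K27me3 lower at 29.1% of these domains in Zfp131KO and at 4.43% in Zbtb11KO. In the authors' deposited table for Zfp131KO, 92 of the 316 domains had lower H3K27me3 at an adjusted p under 0.05 and 0 had higher. Over all 73570 regions of that table, lower calls made up 6.18% and higher calls 11.7%, and over its regions of at least 1000 bp lower calls made up 10.5% and higher calls 0.627%. The median log2 fold change over the 316 was -0.77, and 306 of the 316 values were below 0. In the authors' deposited table for Zbtb11KO, 14 domains were lower and 0 higher. Over all 79775 regions of this second table, lower calls made up 4.83% and higher calls 9.09%, and over regions of at least 1000 bp 1.33% and 0.65%. The median log2 fold change there was -0.43, and 295 values were below 0. At an unadjusted p under 0.05 from the same DESeq2 tables, 179 domains were lower and 0 higher in Zfp131KO, and 58 lower and 0 higher in Zbtb11KO.

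The 4360 domains with H3K4me3 gave smaller median falls in both tables. In the authors' deposited table for Zfp131KO their median was -0.55 and 542 of 4360 (12.4%) were lower, and in that for Zbtb11KO the median was -0.27 and 80 (1.83%) were lower. The median over all regions of the tables was 0.01 and 0.03. The wildtype libraries that chose the domains also enter both fold changes, and both tables share them, so the 2 knockouts are given side by side and the difference between the 2 kinds of domain was not tested.

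The calls of the 2 kinds of domain were also split by wildtype reads per kb. Among domains with 300 to 400 wildtype reads per kb, 45 of 136 without H3K4me3 (33.1%) and 141 of 1754 with it (8.04%) were lower in the authors' deposited table for Zfp131KO. Above 400 reads per kb the counts were 28 of 47 (59.6%) and 375 of 2029 (18.5%). Below 300 they were 19 of 133 (14.3%) and 26 of 577 (4.51%). In the authors' deposited table for Zbtb11KO the medians in the band from 300 to 400 were -0.49 and -0.27. The lower calls there were 7 of 136 (5.15%) and 45 of 1754 (2.57%), and below 300 they were 6 of 133 (4.51%) and 21 of 577 (3.64%). The bands were not matched for width, and the part of wildtype level in the difference was not tested. Width moved with the calls as well: in the authors' deposited table for Zfp131KO, 32 of 76 domains of at least 2000 bp (42.1%) and 60 of 240 narrower ones (25.0%) were lower.

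**Figure D2:**
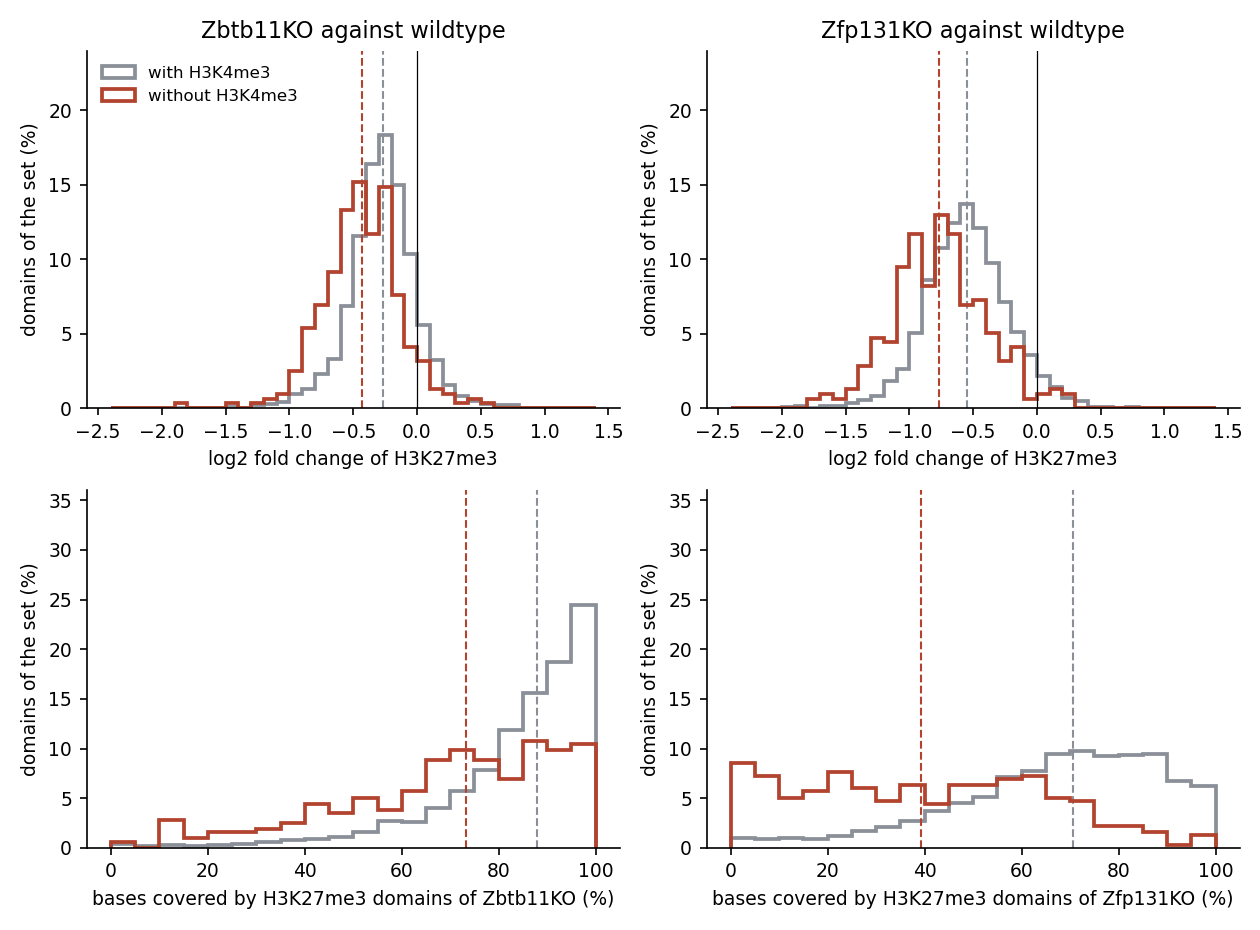
Top, log2 fold change of H3K27me3 in each knockout against wildtype, from the authors' deposited tables, for the 316 domains without H3K4me3 and the 4360 with it; dashed lines are medians (-0.43 and -0.27 in Zbtb11KO, -0.77 and -0.55 in Zfp131KO). Values outside the axis are drawn in the outermost bins. Bottom, percentage of each wildtype domain covered by H3K27me3 domains of the knockout, with medians of 73.4% and 87.9% in Zbtb11KO and 39.2% and 70.6% in Zfp131KO.

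The H3K27me3 domain lists of the knockouts covered less of the wildtype domains in Zfp131KO than in Zbtb11KO. In Zbtb11KO, 315 of the 316 overlapped a knockout domain, 71.0% of their bases were covered, and 147 (46.5%) still overlapped one of at least 1000 bp. In Zfp131KO, 301 overlapped a knockout domain, 41.2% of the bases were covered, and 34 (10.8%) overlapped one of at least 1000 bp. Of the domains with H3K4me3, 85.4% and 68.6% of the bases were covered, and 77.5% and 55.4% overlapped a knockout domain of at least 1000 bp. All listed H3K27me3 domains together held 6431717 reads in wildtype, 5617075 in Zbtb11KO and 3722738 in Zfp131KO. The depth of these libraries is not known, and the part that this order has in the coverage was not tested.

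The share of lower domains was highest near H3K4me3. The authors' deposited table for Zfp131KO had 21 lower among the 52 domains at most 1000 bp from wildtype H3K4me3 (40.4%), against 5 of the 31 more than 20 kb away (16.1%), and the median log2 fold changes were -0.88 and -0.51. The authors' deposited table for Zbtb11KO gave 7 of 52 (13.5%) and 1 of 31 (3.23%), with medians of -0.56 and -0.22. In the groups between, from near to far, its shares were 2.44%, 3.37% and 1.61%, and those for Zfp131KO were 31.7%, 32.6% and 17.7%. Domains within 5000 bp of an H3K27me3 domain with H3K4me3 likewise had the larger share: in the authors' deposited table for Zfp131KO, 76 of 208 (36.5%) were lower there and 16 of 108 (14.8%) farther away. The trend over distance was not tested.

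**Figure D3:**
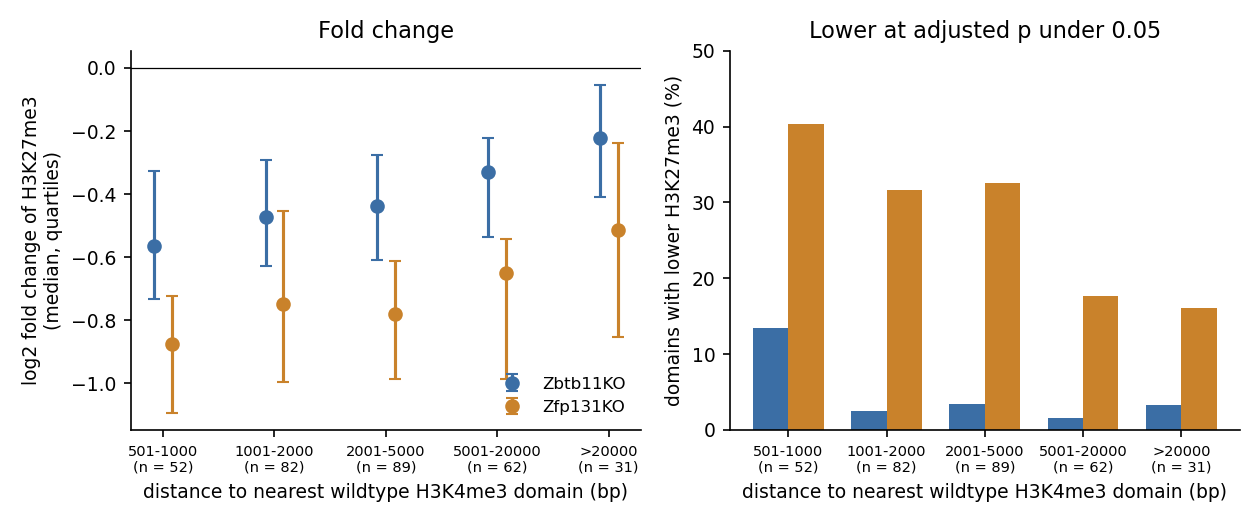
The 316 domains grouped by distance to the nearest wildtype H3K4me3 domain. Left, median log2 fold change of H3K27me3 with quartiles, in each knockout, from the authors' deposited tables; the medians run from -0.56 to -0.22 in Zbtb11KO and from -0.88 to -0.51 in Zfp131KO between the closest and the farthest group. Right, the percentage of each group lower at an adjusted p under 0.05.

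Of the 14 domains that were lower in Zbtb11KO, 4 were in Hox clusters, at Hoxc13, Hoxc11, Hoxc4 and Hoxd3, and others were at or near Nkx2-9, Meis2, Barhl2 and Onecut3. The rest included domains at or near Sox21, a neural SOX factor, Abca4, a retinal lipid transporter, Cdkn2c, a cell cycle inhibitor, Ptpn12, a phosphatase, and Nt5e, an ectonucleotidase. Of the 14, 11 were also lower in Zfp131KO, and these counts share the wildtype libraries.

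The domain near Sox21 had the lowest value in Zbtb11KO. The domain, chr14:118228002-118229049, lies 4184 bp from Sox21 and held 410 wildtype reads over 1048 bp. Its log2 values in the authors' deposited tables were -1.83 in Zbtb11KO (SE 0.36, DESeq2 adjusted p = 1.8e-05) and -1.63 in Zfp131KO (SE 0.52, adjusted p = 0.014). Knockout H3K27me3 domains covered 34 of its bases in Zbtb11KO and 0 in Zfp131KO.

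At Hoxc13, which patterns hair, nails and the posterior body, the domain of 4294 bp held 1637 wildtype reads. The authors' deposited tables gave it log2 values of -0.96 in Zbtb11KO (SE 0.33, DESeq2 adjusted p = 0.030) and -1.24 in Zfp131KO (SE 0.40, adjusted p = 0.017). Knockout domains covered 2103 and 1347 of its bases. At Barhl2, a homeobox gene of retina and spinal cord, the domain of 1216 bp held 647 wildtype reads, and 974 and 738 bases stayed covered. Its log2 values were -0.92 in Zbtb11KO (SE 0.33, DESeq2 adjusted p = 0.042) and -1.32 in Zfp131KO in the authors' deposited tables (SE 0.33, adjusted p = 0.0011).

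Domains with a mean signal in the table at or above the median were ordered by their fall in Zfp131KO, and Sox21 led this order. Below it came Neurog2, which starts neuron formation, at -1.35 on the log2 scale of the authors' deposited table (SE 0.40, DESeq2 adjusted p = 0.0087). After Barhl2 came the domains near Sp9, a forebrain and limb factor (SE 0.33, adjusted p = 0.0019), and near Hoxd13, the digit gene (SE 0.38, adjusted p = 0.0094), in the same authors' deposited table. Domains at or near Prdm8, Hoxc13, Zic4 (2 domains) and Pax3 followed, from -1.25 to -1.16. By the authors' deposited table for Zbtb11KO, the same domains near Neurog2, Sp9, Hoxd13, Prdm8, Zic4 and Pax3 had log2 values between -0.85 and -0.54, and none of them passed the test.

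The counts for gene lists are to be read beside the 29.1% of all 316 domains that were lower in the authors' deposited table for Zfp131KO and the 4.43% in that for Zbtb11KO, and no difference from these shares was tested. Of the list of mesoderm and endoderm regulators, 10 of 27 genes lay at 20 of these domains (20 of the 27 lay at domains with H3K4me3), and 14 of the 20 were lower in the authors' deposited table for Zfp131KO. Pax3, the gene of muscle and neural crest, had a domain of 2763 bp with a log2 value of -1.16 in that deposited table of the authors (SE 0.42, DESeq2 adjusted p = 0.035). The domain at Evx1, which acts in gastrulation, had -0.90 in the authors' deposited table (SE 0.34, DESeq2 adjusted p = 0.044).

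Neural transcription factors gave 11 of 29 genes at 18 domains, 6 of them lower in the authors' deposited table for Zfp131KO, with a median of -0.87. At Neurod2, a cortical neuron factor, a domain of 3575 bp had a log2 value of -0.91 in it (SE 0.33, DESeq2 adjusted p = 0.037), while its neighbour of 2683 bp had -0.81 (SE 0.33, adjusted p = 0.072) and did not pass. The 11 Hox genes lay at 17 domains, of which the authors' deposited tables called 4 lower in Zbtb11KO and 5 in Zfp131KO. Of the 44 Fox genes 9 lay at 12 domains, 6 of them lower in the authors' deposited table for Zfp131KO, and of the 9 Pax genes 5 lay at 10 domains, 4 of them lower. Both domains at Sox genes, near Sox14 and Sox21, were lower there. T-box genes had 7 domains with 2 lower, and Gata genes 5 with 2 lower, by the same authors' deposited table.

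The remaining lists had 1 lower call or none, apart from predicted genes and the primitive endoderm list. The latter had 4 of 5 domains lower in the authors' deposited table for Zfp131KO and is described below with Gata4 and Foxa2. The trophectoderm list had 5 of 13 genes at 6 domains (Cdx2, Eomes, Gata2, Gata3 and Tfap2a), and the authors' deposited table for Zfp131KO called 1 lower, at Gata3 (-1.01, SE 0.33, DESeq2 adjusted p = 0.018). The blood and immune list had only the 2 domains of Gata3, shared with that list. The 6 domains of Wnt pathway genes (Wnt1, Wnt10b, Wnt3a, Wnt8a and Wnt9b) had no lower call in either of the authors' deposited tables, and neither had the 2 of imprinted genes (Grb10 and Igf2), the 2 of neuronal channels and receptors (Chrnb2 and Grin2b), or the single domains at Ntn1 (synapse and axon guidance), Twist1 (fibroblast and matrix) and Pou3f1 (formative and primed). Among families, protocadherins had 5 domains and the zinc finger family 8, with 0 lower in either of the authors' deposited tables and Zfp131KO medians of 0.01 and -0.56. The zinc finger genes counted there were Zbtb16, Zbtb18, Zfp503, Zfp541, Zfp648, Zfp651 and Zfp92. They did not include Zic1 and Zic4, which had domains lower in the authors' deposited table for Zfp131KO. Predicted and RIKEN genes had 8 domains, 2 of them lower in the authors' deposited table for Zfp131KO, collagens had 2 with 0 lower, and solute carriers and potassium channels had 1 each with 0 lower. No domain lay at a gene of the pluripotency, germline, two-cell-like, Polycomb complex, p53 target or calcium and G protein lists, or of the olfactory receptor, vomeronasal receptor, keratin, cadherin, interleukin, or protease and kallikrein families.

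Promoters under H3K27me3 without H3K4me3 varied in what they did. Meox2, a homeobox gene of the somites, lay farthest from the active mark among the 9 promoters shown, 51672 bp from any wildtype H3K4me3 domain, under a domain of 2696 bp with 990 reads. Its H3K27me3 had log2 values of -0.16 (SE 0.33, DESeq2 adjusted p = 0.78) in Zbtb11KO and -0.55 (SE 0.34, adjusted p = 0.26) in Zfp131KO, by the authors' deposited tables. Prdm8, a neural chromatin regulator, and Zic4 did pass the test in Zfp131KO: their log2 values in the authors' deposited table were -1.02 (SE 0.33, DESeq2 adjusted p = 0.019) and -1.17 (SE 0.39, adjusted p = 0.020). Tnf, the inflammatory cytokine gene, had 888 reads over 2640 bp, and values of -0.06 (SE 0.33) and -0.69 (SE 0.33) in the authors' deposited tables, with adjusted p of 0.92 and 0.12. Npas4, a gene switched on by neuronal activity, had -0.71 (SE 0.33) and -0.64 (SE 0.40) there and did not pass either test. In wildtype its domain also had the corepressor SIN3A (1106.8 reads) and the pausing factor NELF (94.5 reads) within 500 bp.

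Bhmg1 had the promoter richest in CG, and Dmrtc2, a germ line gene of the DMRT family, the next. Neither domain passed either test: the authors' deposited tables gave -0.21 (SE 0.29) and -0.35 (SE 0.31) for Bhmg1, and -0.14 (SE 0.32) and -0.25 (SE 0.33) for the domain shared by Dmrtc2 and Lypd4. Knockout H3K27me3 domains covered 1435 and 1592 of the 1594 bases at Bhmg1 in Zbtb11KO and Zfp131KO. The domain of Mir196a-2 and Hoxc10 had a log2 value of -1.10 in Zfp131KO in the authors' deposited table (SE 0.37, DESeq2 adjusted p = 0.025), and that of Mir483 and Igf2 had -0.61 (SE 0.35, adjusted p = 0.22).

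H3K4me3 domains were listed at some of the 316 in each knockout, though most of these were tiny. Within 500 bp, 29 domains (9.18%) had H3K4me3 in Zbtb11KO and 46 (14.6%) in Zfp131KO, and the double knockout had it at 56 (17.7%). The rule sets the wildtype number to 0. All 3 genotypes had it at 20 of the 316, 2 of them at 19, 1 at 33 and none at 244. The median width of the knockout H3K4me3 domains was 48.5, 64.5 and 73 bp, and domains of at least 200 bp lay at 7, 12 and 25 of the 316. At 14, 15 and 16 of them the reads summed to under 20, near the 10 to 13 reads of the smallest domains in the lists.

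The same rule was also applied from the knockout side. Of the 391 H3K27me3 domains of at least 1000 bp in Zbtb11KO without H3K4me3 of that genotype, 128 (32.7%) had a wildtype H3K4me3 domain within 500 bp, and of the 132 in Zfp131KO it was 52 (39.4%). With H3K4me3 domains of at least 200 bp only, the numbers were 51 (13.0%) and 20 (15.2%). Across the genome, 11.3%, 13.0% and 28.0% of the H3K4me3 domains of Zbtb11KO, Zfp131KO and the double knockout had no wildtype domain within 500 bp. The listed H3K4me3 domains together held 35134387 reads in wildtype, 28319335 in Zbtb11KO and 32341055 in Zfp131KO, with 59546938 for the double knockout, and the part of this order in the counts was not tested.

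H3K4me3 regions within 500 bp of these domains were called higher or did not pass in the comparison of genotypes. The authors' deposited table for Zfp131KO had 15 of 66 such regions higher and 0 lower at an adjusted p under 0.05, where higher calls made up 15.1% and lower calls 11.4% of all regions. At an unadjusted p under 0.05 the counts were 21 and 0. The authors' deposited table for Zbtb11KO gave 4 of 33 higher and 0 lower, where higher calls made up 21.6% and lower calls 12.9% of all regions, and 11 of the 33 had no adjusted p. The counts were 6 and 1 at an unadjusted p under 0.05. Places with a higher call in Zbtb11KO at the adjusted threshold were Bhmg1, Lypd4 with Dmrtc2, and Zic4. At Zic4, overlapping regions of 2222 and 2178 bp were both called, so they count a single place. These values rest in part on the rule, which chose places without wildtype H3K4me3.

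Gata4, a regulator of endoderm and heart, had H3K4me3 inside such a domain in every knockout genotype. Its 3736 bp domain, chr14:63267484-63271219, overlaps the gene, and the nearest wildtype H3K4me3 was 11089 bp away. H3K4me3 reads in domains within 500 bp came to 0 in wildtype, 62 in Zbtb11KO and 548 in Zfp131KO, while the double knockout had 1336. The widest H3K4me3 domain grew in the same order, 211, 937 and 3359 bp. By the authors' deposited table for Zfp131KO, 3 H3K4me3 regions there were higher, 1 of them by 2.96 on the log2 scale (SE 0.61, DESeq2 adjusted p = 2.4e-05).

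H3K27me3 at this Gata4 domain was still listed in both knockouts. Knockout domains covered 3371 of its bases in Zbtb11KO and 1948 in Zfp131KO, and its log2 values in the authors' deposited tables were -0.23 (SE 0.31, DESeq2 adjusted p = 0.65) and -0.84 (SE 0.33, adjusted p = 0.061). The neighbouring domain of 2659 bp, chr14:63264503-63267161, had -1.33 in Zfp131KO in the authors' deposited table (SE 0.36, DESeq2 adjusted p = 0.0034), and 89 of its bases stayed covered.

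**Figure D4:**
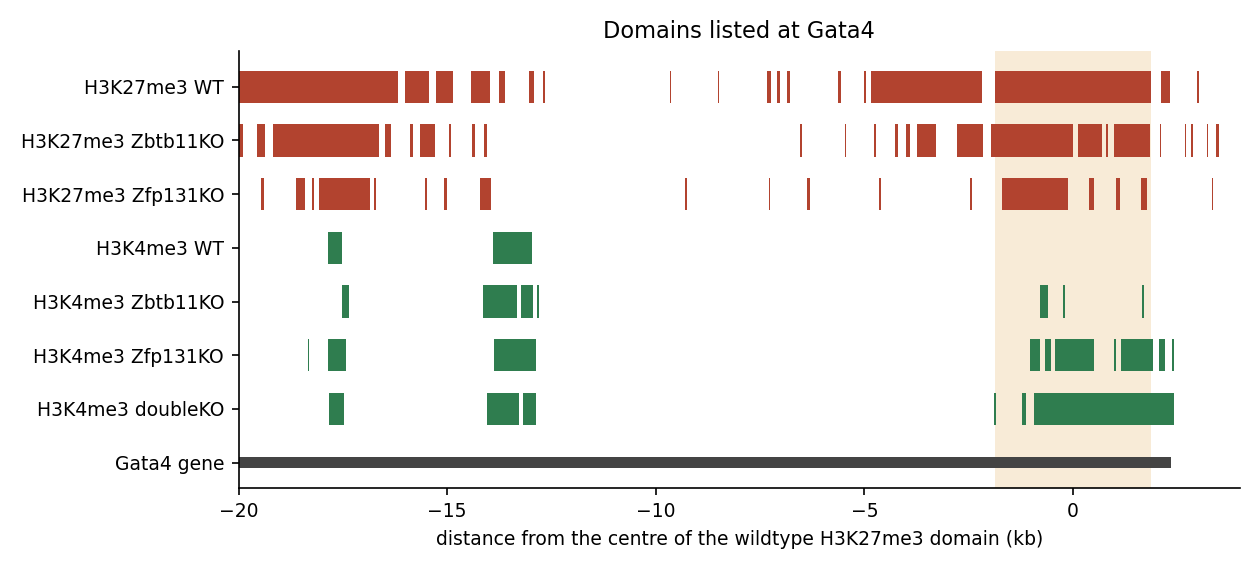
Domains listed at Gata4 for each mark and genotype, by distance in kb from the centre of the 3736 bp wildtype H3K27me3 domain (shaded), with the extent of the gene below. No wildtype H3K4me3 domain is listed in the shaded stretch, and the double knockout has 1 of 3359 bp there.

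Foxa2, a partner of Gata4 in endoderm, had a domain with the same order of genotypes. The domain of 3422 bp, chr2:148037403-148040824, lies 2053 bp from Foxa2, spans starts of the long noncoding RNA gene 9030622O22Rik, and had wildtype H3K4me3 3229 bp away. H3K4me3 reads in listed domains within 500 bp came to 0 in wildtype, as the rule sets, 14 in Zbtb11KO and 193 in Zfp131KO. The double knockout had 591. The domain had no H3K4me3 region called at an adjusted p under 0.05 in either of the authors' deposited tables. Its H3K27me3 log2 values, from the authors' deposited tables, were -1.15 in Zfp131KO (SE 0.33, DESeq2 adjusted p = 0.0064) and -0.44 in Zbtb11KO (SE 0.30, adjusted p = 0.34). Gata4 and Foxa2 are the genes of the primitive endoderm list found here, with 5 domains in all, 4 of them lower in the authors' deposited table for Zfp131KO.

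At other genes the knockout H3K4me3 domain overlapped a wildtype H3K4me3 domain and reached closer to the H3K27me3 domain. Such domains lay at 7 of the 29 in Zbtb11KO and 6 of the 46 in Zfp131KO, and for the double knockout at 10 of the 56. At Zic4 the H3K4me3 reads were 692 in Zbtb11KO and 114 in Zfp131KO, and 1673 for the double knockout, in domains of up to 2460 bp beside the H3K27me3 domain. By the authors' deposited table, a region of 2178 bp there was higher in Zbtb11KO by 1.57 on the log2 scale (SE 0.25, DESeq2 adjusted p = 3.8e-09). A domain 21410 bp from Nr2f2, a nuclear receptor gene, had 507, 665 and 1131 reads in such H3K4me3 domains. No H3K4me3 region there was called in either of the authors' deposited tables. Snai1, a driver of epithelial to mesenchymal transition, had 32, 104 and 2155 reads, most of the last in a domain of 2998 bp reaching over from wildtype H3K4me3.

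Dlx5, a limb and forebrain homeobox gene, had 235, 11 and 738 reads in the 3 knockout genotypes. All 235 in Zbtb11KO and 709 of those in the double knockout lay in domains that overlap wildtype H3K4me3. Irx2, an Iroquois homeobox gene, had 20, 93 and 230 in domains apart from wildtype H3K4me3, and Zfp541 had 25, 23 and 146. At Irx2 no H3K4me3 region was called in either of the authors' deposited tables. Both protocadherin clusters on chromosome 18 also had H3K4me3 in every knockout genotype, with 11, 95 and 206 reads at the Pcdhg genes and 38, 83 and 85 at the Pcdha genes. Those at the Pcdha genes were all in domains that overlap wildtype H3K4me3. The double knockout had the most reads at all 10 of the named domains with H3K4me3 in every knockout genotype. That list also held the most H3K4me3 reads in all, so these orders are of unscaled reads.

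**Figure D5:**
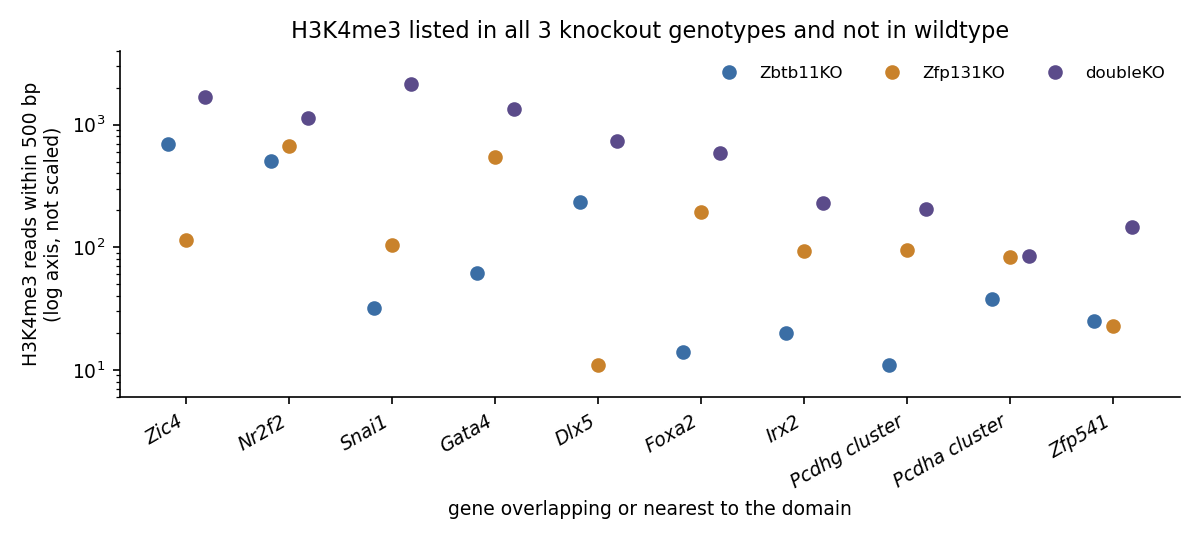
H3K4me3 reads in domains within 500 bp (log axis, not scaled for depth) at the 10 domains with the most reads among those listed in all 3 knockout genotypes, where wildtype had no domain within 500 bp. For Zic4, Nr2f2, Snai1, Dlx5 and the Pcdha genes, some of these H3K4me3 domains overlap wildtype ones that lie farther away. The double knockout is highest at each, from 85 reads at the Pcdha genes to 2155 at Snai1.

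Some places had H3K4me3 in 1 knockout genotype alone. There were 5 for Zbtb11KO, 10 for Zfp131KO and 18 for the double knockout. Gata3, which also marks trophectoderm, had 333 reads in Zbtb11KO in a domain of 1229 bp that overlaps a wildtype one, and the other 4 in that genotype (near Ubl4b, Zic4, Wnk4 and Hand2) had 10 to 12 reads. Zfp503 had 577 reads in Zfp131KO in a domain of 814 bp that also overlaps a wildtype one, and the others named (Zfp651, Barhl1, Npas4 and a place with no gene within 50 kb) had 18 to 42. In the double knockout a domain between 2 of the Nt5e domains held 2008 reads over 1520 bp. It overlaps a wildtype H3K4me3 domain, and Zbtb11KO had a domain of 953 bp with 515 reads in the same stretch, within 500 bp of the other Nt5e domain, so the place is not particular to the double knockout. Osr1, a kidney and limb factor, had 83. Pou3f1, of the formative state, had it in 2 genotypes, with 1576 reads in Zfp131KO and 2430 in the double knockout, both in domains that overlap wildtype H3K4me3. By the authors' deposited tables, no H3K4me3 region was called at the named domains at or near Gata3, Zfp503 and Pou3f1.

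H3K27ac, the mark of active enhancers and promoters, which the rule did not use, was all but missing. It was listed within 500 bp of 3 of the 316 domains in wildtype, 2 in Zbtb11KO and 2 in Zfp131KO, compared with 650, 327 and 412 of the 4360 domains with H3K4me3. In wildtype the 3 were at Gata4, Gm41844 and Abca4. It was listed only in knockouts at a domain 30852 bp from 2610301B20Rik, with 45 reads in Zbtb11KO and 93 in Zfp131KO. At Bhmg1 it was listed only in Zfp131KO, with 10 reads. The authors' deposited table for Zbtb11KO had 2 of 9 H3K27ac regions at these domains higher and 3 lower, and that for Zfp131KO had 2 of 7 higher and 2 lower. Higher calls made up 14.6% and 15.8% of all regions in those tables, and lower calls 11.8% and 14.3%. A region near 2610301B20Rik was higher by 1.24 on the log2 scale in Zbtb11KO (SE 0.36, DESeq2 adjusted p = 0.0048) and another by 1.15 in Zfp131KO (SE 0.42, adjusted p = 0.025), by the authors' deposited tables.

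At the domain near 2610301B20Rik, chr4:10930277-10931287, H3K27me3 had a log2 value of -1.27 in Zfp131KO in the authors' deposited table (SE 0.38, DESeq2 adjusted p = 0.0088), and 66 of its 1011 bases stayed covered. It had no H3K4me3 within 500 bp in any genotype. At Bhmg1 the H3K27ac region was higher in Zfp131KO by 1.69 in the authors' deposited table (SE 0.63, adjusted p = 0.030), beside the H3K4me3 of 58, 29 and 93 reads. At Gm41844 a region of 188 bp was lower in both of the authors' deposited tables, at -3.75 in Zbtb11KO and -2.01 in Zfp131KO on the log2 scale (SE 0.61 and 0.46, DESeq2 adjusted p = 6e-08 and 0.00016). At the 2659 bp domain of Gata4 a region of 164 bp was lower in Zbtb11KO, at -1.44 in the authors' deposited table (SE 0.46, adjusted p = 0.010).

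Factors of active and paused promoters were listed at few of these domains. NELF, which holds paused polymerase, had a wildtype event within 500 bp of 49 (15.5%), compared with 82.2% of domains with H3K4me3. The corepressor SIN3A had one at 64 (20.3%, against 85.1%), the remodeller CHD4 at 7 (2.22%, against 21.4%) and the H3K4 methyltransferase SETD1A at 8 (2.53%, against 54.5%). Polymerase II phosphorylated for initiation was listed at 12 (3.8%, against 41.7%). ZBTB11 events lay at 8 (2.53%, against 44.7%) and ZFP131 events at 0 (against 8.6%). These differences were not tested.

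NELF events were nearly missing at these domains in the knockouts, with 0 in Zbtb11KO and 3 in Zfp131KO, and 1 for the double knockout. The lists as a whole were shorter too, from 60923 events in wildtype to 18009, 20265 and 9946. In the authors' deposited table for Zbtb11KO, 18 of 60 NELF regions at these domains were lower and 0 higher, where lower calls made up 49.0% and higher calls 0.159% of all regions. At an unadjusted p under 0.05 it was 24 and 0. Bhmg1 had the most NELF of the promoters above, 353 reads in wildtype. SIN3A (150.9 reads) and polymerase II phosphorylated for initiation were also listed at Bhmg1 in wildtype. A NELF region there was lower in the authors' deposited table, at -2.13 on the log2 scale (SE 0.44, DESeq2 adjusted p = 8.1e-05). Another, overlapping it, was lower at -1.73 (SE 0.47, adjusted p = 0.0023).

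SIN3A was called lower at a few of them. For Zfp131KO, the authors' deposited table had 6 of 42 regions lower and 0 higher, where lower calls made up 2.84% and higher calls 2.98% of all regions, and at an unadjusted p under 0.05 it was 14 and 0. The authors' deposited table for Zbtb11KO gave 4 of 99 lower and 1 higher, where lower calls made up 3.23% and higher calls 3.44%. At Prickle1, a planar polarity gene, the authors' deposited tables gave -0.99 in Zbtb11KO (SE 0.31, DESeq2 adjusted p = 0.031) and -1.23 in Zfp131KO (SE 0.33, adjusted p = 0.0089). For CHD4 the authors' deposited tables gave 3 of 8 regions higher in Zbtb11KO, at Lgr5, Myof and Abca4 (higher calls 9.38%, lower calls 2.82% of all), and 3 of 9 lower in Zfp131KO, 1 of them at Gata4, at -2.7 (SE 0.56, DESeq2 adjusted p = 7.3e-05; higher calls 8.05%, lower calls 8.08% of all). At an unadjusted p under 0.05 these CHD4 counts were the same.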

How the data were processed

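Chromatin immunoprecipitation libraries of 48 samples in 24 groups of 2 were deposited as lists that pool the libraries of a group and as comparisons of a knockout with wildtype. Bowtie 1.0.1, bedtools, DESeq2 1.28.1 and the build mm10 are named in the submitters' processing notes. Domain lists give read counts and a p-value for each domain, made by the authors with DomainFinder, per the file headers, with 1 list a group and every listed p-value under 0.01. Binding events of NELF, SIN3A, CHD4, SETD1A, ZBTB11 and ZFP131 come from MultiGPS, per the file headers. Each event has a deposited signal, which is its assigned reads, a deposited log2 fold over control and a deposited score on a log2 p scale. Each region of the deposited DESeq2 tables has its mean signal over libraries, the log2 fold change and standard error, and the p-value before and after adjustment. How the authors scaled the reads before these tables is not given in the sources used here. The domain lists give no depth for the libraries of histone marks. No file gives a value for 1 library and 1 region, so no error between libraries can be given for the lists, and the p-values measure the spread between 2 libraries a group, which may be technical.

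Intervals were compared in Python 3.11.15 with numpy 2.4.6 and pandas 2.3.3, figures were drawn with matplotlib 3.10.9, and the interval code was tested on simulated data. A domain took the table region with the largest overlap, and calls used the deposited adjusted p under 0.05. Starts, genes and sequences are from RefSeq on GRCm38.p6. A domain was named by the protein-coding genes it overlaps, or else by the nearest within 50 kb. The domains, the 17 gene lists and the 18 families were chosen with earlier results of these data known. Genes were named by a rule: the 10 widest domains, the 10 largest changes called in each H3K27me3 table among domains with at least the median signal, up to 10 domains with H3K4me3 in all knockout genotypes and 5 in 1 alone, those with H3K27ac only in a knockout, and up to 3 per list by wildtype reads. The other domains named, among them those lower in Zbtb11KO, those with a start inside and the loci with the most domains, were chosen after their values were seen. Some domains that the rule names are not reported here. The NELF table for Zfp131KO equals that for Zbtb11KO, and the SIN3A events for Zfp131KO equal the CHD4 list, so neither was used. The number of columns of other samples was 0. Alternatives changed the width, the distance, the calls and the domains compared.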

Additional observations from a re-analysis of the deposited data

How the results depend on the processing

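Of the comparisons under other settings, 62 values of the main results stayed within 1.5 times of the reported value and 37 did not, and none reversed. The 24 alternative values of single domains kept their direction and call. The number of domains was 76 at a minimum width of 2000 bp, 1034 at 500 bp, and 182 and 93 with H3K4me3 more than 2000 and 5000 bp away. The share with lower H3K27me3 in Zbtb11KO (4.43%) was 0.949% at an adjusted p under 0.01, 2.22% at 2-fold or more, 2.75% and 2.15% with H3K4me3 more than 2000 and 5000 bp away, and 1.85% more than 5000 bp from a domain with H3K4me3. In Zfp131KO (29.1%) it was 5.70% at an adjusted p under 0.01, 17.2% with H3K4me3 more than 5000 bp away and 14.8% more than 5000 bp from a domain with H3K4me3. The share with knockout H3K4me3 in Zbtb11KO (9.18%) was 5.70% by overlap alone, 4.11% at a domain p-value of at most 1e-05, 2.22% for H3K4me3 domains of at least 200 bp and 17.1% for H3K27me3 domains of at least 2000 bp. For Zfp131KO (14.6%) it was 7.28% at that p-value and 3.8% at 200 bp, and for the double knockout (17.7%) 7.91% at 200 bp. From the knockout side, the shares with wildtype H3K4me3 were 20.5% and 13.0% in Zbtb11KO and 21.2% and 15.2% in Zfp131KO at that p-value and at 200 bp. The share with H3K27ac rests on 2 or 3 domains. In wildtype (0.949%) it was 1.65% and 3.23% with H3K4me3 more than 2000 and 5000 bp away, 2.78% more than 5000 bp from a domain with H3K4me3 and 0.451% for the widest domain of each locus. In Zbtb11KO (0.633%) it was 0% at a width of 2000 bp, 1.10% and 2.15% at the 2 distances and 1.85% away from domains with H3K4me3. In Zfp131KO (0.633%) it was 0.317% by overlap or at the stricter p-value, 0% at a width of 2000 bp, 1.08% at 5000 bp and 1.85% away from domains with H3K4me3. Wildtype NELF lay at 25.0% of domains of at least 2000 bp. Beyond the smaller number of domains or calls that a stricter setting leaves, the cause was not tested. The settings of 200 bp H3K4me3 domains, of distance from a domain with H3K4me3 and of the widest domain of a locus were chosen after seeing the data. No paired analysis was possible because the files hold no values of single libraries, and leaving out a replicate was not run for the same reason.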
